A study of Mus musculus with 12 samples.

Results

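The potassium and HCN channel genes of the mouse cortex were followed through 4 kinds of RNA sample, namely ribosomes pulled down from a synaptic band (SynapTRAP), that band itself (SNF), ribosomes pulled down from the whole homogenate (TRAP) and the homogenate (WCH). Members were all protein-coding genes in the count files whose mouse symbol begins with Kcn, or with Hcn and a digit, which gave 98 of 29879 genes. Of these, 81 encode pore-forming subunits, 12 encode auxiliary subunits (3 Kcnab, 4 Kcnip and 5 Kcne genes), and 5 others are the 4 BK channel beta subunits and Kcnrg. All RNA was cortical and from mice of the SNAP25 bacTRAP line aged p21 (postnatal), with 3 libraries in each of the 4 groups. In a bacTRAP line a ribosomal protein tagged with eGFP is expressed from a transgene, here named for Snap25, a gene of neurons. The tag lets ribosomes of the expressing cells, with the mRNA on them, be immunoprecipitated with antibodies to eGFP. SynapTRAP is the eGFP immunoprecipitate of the band that holds synaptic material in a gradient of sucrose and percoll, SNF is the same band without immunoprecipitation, TRAP is the eGFP immunoprecipitate of cortex, and WCH is cortex RNA that served as the control. There was no animal without the transgene among the 4 groups, and the sources used here do not say whether the 3 libraries of a group came from separate animals. The p-values therefore measure only the spread between these samples.

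A potassium channel opens a selective path for potassium through the membrane, which sets the resting potential, ends action potentials and limits repetitive firing. The pore is built from pore-forming subunits, whereas auxiliary subunits bind to them and alter their gating, assembly or transport. Voltage-gated subunits of the Kcna, Kcnb, Kcnc, Kcnd, Kcnh and Kcnq families open on depolarization, and the electrically silent Kcnf, Kcng, Kcns and Kcnv subunits assemble with Kcnb subunits. Inward rectifiers (Kcnj) and 2-pore-domain channels (Kcnk) act near the resting potential, and HCN channels pass a mixed sodium and potassium current on hyperpolarization. Kcnab proteins are cytosolic partners of Kcna channels, Kcnip proteins are calcium-binding partners of Kcnd channels, and Kcne proteins are small membrane-spanning partners of several voltage-gated channels.

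What separates both classes at the sequence level is the selectivity filter, the glycine, aromatic residue, glycine stretch that lines the pore. The coding sequence was searched in frame and on the coding strand for a glycine codon (GGN), a tyrosine or phenylalanine codon (TAT, TAC, TTT or TTC) and a second glycine codon. All 81 pore-forming members held it, none of the 12 auxiliary and none of the 5 other members did, and 2836 of 20843 protein-coding genes of the count files did (13.6%). The stretch is short, so a match outside the channel genes is a match of letters only. The following 33-base windows from a voltage-gated and a calcium-activated pore-forming member are shown because the stretch marks the class that the comparisons set apart. Capitals mark the glycine, tyrosine, glycine codons. The windows lie in coding exons of GENCODE M21 on GRCm38, at chr3:107105218-107105250 on the plus strand for Kcna2 and chr14:23528401-23528433 on the minus strand for Kcnma1.
Kcna2: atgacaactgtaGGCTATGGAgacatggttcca
Kcnma1: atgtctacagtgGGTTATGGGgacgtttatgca

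Gene counts per library ran from 4368881 to 14335089, and counts outside the mitochondrial genome from 1819853 to 7115176. Mitochondrial RNA took 20.4% to 63.3% of gene counts in SynapTRAP, 82.2% to 87.3% in SNF, 0.93% to 5.43% in TRAP and 33.6% to 50.9% in WCH, so library scaling bears on every fold change below. SynapTRAP replicate 3 stood apart with the 63.3%, and TRAP replicate 3 stood apart in a list of 26 channel partner genes, with a summed level of 14180 CPM (a count scaled to its library's effective size) against 4493 and 2631 CPM in the other TRAP libraries. Glial markers moved with the groups as well. The 12 astrocyte markers summed to 9752 to 16810 CPM in SynapTRAP, 14700 to 19940 CPM in SNF, 713.5 to 1519 CPM in TRAP and 2440 to 3044 CPM in WCH, with none of the 12 at 0 in any library. The 10 neuron markers summed to 6223 to 8163 CPM in SynapTRAP, 7563 to 8137 CPM in SNF, 9213 to 14300 CPM in TRAP and 9570 to 10410 CPM in WCH. The 10 oligodendrocyte markers summed to 9019 to 21860 CPM in SynapTRAP, 7590 to 10080 CPM in SNF, 544.5 to 7121 CPM in TRAP and 2814 to 3576 CPM in WCH. The 10 microglia markers summed to 199.9 to 429.4 CPM in SynapTRAP, 321.6 to 656.3 CPM in SNF, 26.5 to 55.7 CPM in TRAP and 83.4 to 102.1 CPM in WCH. Astrocyte, oligodendrocyte and microglia sums were thus lowest in the TRAP libraries, except the oligodendrocyte sum of TRAP replicate 3. The part of these markers in the channel results was not tested, and more RNA per cell cannot be told apart from more cells or fragments of a type.

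Members took 21338 to 69484 counts per library. After a filter on low counts 76 of the 98 members were tested among 13404 genes, 65 pore-forming, 8 auxiliary and 3 others. The 22 members below the filter had at most 13 counts in any library, and 2 of them, Kcnj1 and Kcnk16, had none. Among the auxiliary genes Kcne1, Kcne2, Kcne3 and Kcne4 fell below it, so Kcne1l, a gene of the same family on the X chromosome, was the only Kcne gene tested.

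Levels between genes were compared as CPM per kilobase of exon, since longer transcripts collect more reads. Summed over pore-forming members, the level was 561.0 ± 138.0 CPM per kilobase in SynapTRAP, 811 ± 105 in SNF, 292 ± 28.8 in TRAP and 350.3 ± 31.5 in WCH (SD, n = 3 each). Summed over auxiliary members it was 116 ± 8.57 CPM per kilobase in SynapTRAP, 102.5 ± 1.02 in SNF, 119.9 ± 15.5 in TRAP and 87.2 ± 3.38 in WCH. The auxiliary sum therefore varied less between groups than the pore-forming sum, although its members went opposite ways. Within it, Kcnip3 was at 56.4 CPM per kilobase in SNF and 24.2 in WCH, whereas Kcnab1 and Kcnip4 were called lower in SNF, as given below. Auxiliary members held 16.9%, 13.9% and 21.02% of the summed channel level in the 3 SynapTRAP libraries. Their share was 11.3%, 9.83% and 12.6% in the SNF libraries, 30.0%, 24.2% and 31.5% in the TRAP libraries and 21.5%, 18.9% and 18.7% in the WCH libraries. All 3 SNF libraries lay below all 9 others and all 3 TRAP libraries above all 9 others, while SynapTRAP and WCH overlapped. Single genes differed, as Kcnip3 had a mean of 42.2 CPM per kilobase in TRAP and 24.2 in WCH, and Kcnab2 27.8 and 13.0. By contrast, Kcnip4 had 19.7 and 19.3 and Kcnip2 14.65 and 15.06, so not every auxiliary gene was higher in TRAP.

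**Figure D1:**
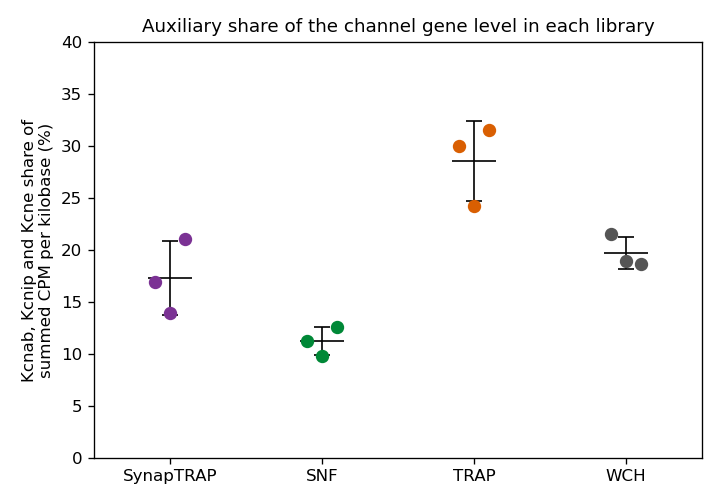
Share of the summed CPM per kilobase of all 98 channel genes that came from the 12 Kcnab, Kcnip and Kcne genes (y axis, percent) in each library (points) of the 4 groups (x axis), with the group mean (long bar) and SD (short bars, n = 3). The SNF libraries sit at 9.83% to 12.6% and the TRAP libraries at 24.2% to 31.5%.

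The highest members per kilobase differed between groups. Kcnj10, the inward rectifier of astrocytes, led SynapTRAP with 63.6 ± 34.9 CPM per kilobase and SNF with 71.2 ± 20.2 (SD, n = 3). Kcnip3, a calcium-binding subunit that is also known as a transcriptional repressor, led TRAP with 42.2 ± 16.9 CPM per kilobase, ahead of Kcnab2, a beta subunit of Kcna channels, with 27.8 ± 4.08. Kcnq3, a subunit of the M-current channel, led WCH with 33.6 ± 6.96 CPM per kilobase, followed by the axonal channel gene Kcna1 with 33.0 ± 0.352. In each of the 4 groups the first and second member per kilobase differed by less than the larger of their SDs, the second being Kcnip3 in SynapTRAP and Kcna1 in SNF.

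The first comparison was between the synaptic band and the homogenate. Pore-forming members were higher in SNF than in WCH for 49 of 65 tested genes and lower for none, with a median log2 fold change of 1.17 against −0.25 over all 13404 genes. Of the 8 auxiliary members 2 were higher and 3 were lower, with a median of −0.47. With the tested BK beta subunits counted as auxiliary, that median was −0.10, above the median of all genes. Over all tested genes 20.6% were called higher and 16.5% lower, 37% in all, at an edgeR adjusted p under 0.05. Calls spread over every pore-forming role, with 21 of 26 voltage-gated, 6 of 9 electrically silent, 4 of 7 calcium- or sodium-activated, 9 of 10 inward rectifier, 5 of 9 2-pore-domain and 4 of 4 HCN members higher. Microglial markers (10 of 10), astrocyte markers (12 of 12) and oligodendrocyte markers (7 of 10) were higher in the same comparison, and 1 of 10 neuron markers was higher and 2 were lower. Fibroblast and meninges markers were higher for 6 of 6 (median 2.29). Inhibitory neuron markers were higher for 3 of 6 and lower for 1 (median 0.48). Excitatory neuron markers were higher for 2 of 5 and lower for 1 (median −0.50).

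Among the voltage-gated members, Kcnd2, which carries the A-type current of dendrites, had 157, 173 and 159 CPM in SNF and 59.2, 67.0 and 79.5 CPM in WCH. Every SNF library lay above every WCH library, and the log2 fold change was 1.25 ± 0.23 (SE) with an edgeR adjusted p of 0.000222. Kcna1, which with Kcna2 lines the axon beside the nodes of Ranvier, had 353, 379.8 and 260.3 CPM in SNF and 158, 159 and 156 CPM in WCH. The WCH libraries were nearly equal and the lowest SNF library stood well above them (log2 change 1.07 with SE 0.26, edgeR adjusted p = 0.00323). Kcna2 (1.26), Kcnc1 of fast-spiking neurons (1.17), Kcnd3 (1.12), the ether-a-go-go channel gene Kcnh1 (1.36) and Kcnb2 (1.34) also rose on the log2 scale, with edgeR adjusted p from 0.000377 to 0.00113.

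Not every voltage-gated member passed the test. Kcna4, an A-type subunit of axons, had 31.1, 36.7 and 29.4 CPM in SNF and 31.9, 28.6 and 21.9 CPM in WCH. The groups overlapped in part and the log2 difference of 0.24 ± 0.24 (SE) was not called (edgeR adjusted p = 0.441). Kcnq3 had 749.9, 778 and 694 CPM in SNF and 404, 475 and 606 CPM in WCH. The groups did not overlap, and the log2 difference of 0.58 ± 0.23 (SE) narrowly missed the threshold (edgeR adjusted p = 0.0549).

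**Figure D2:**
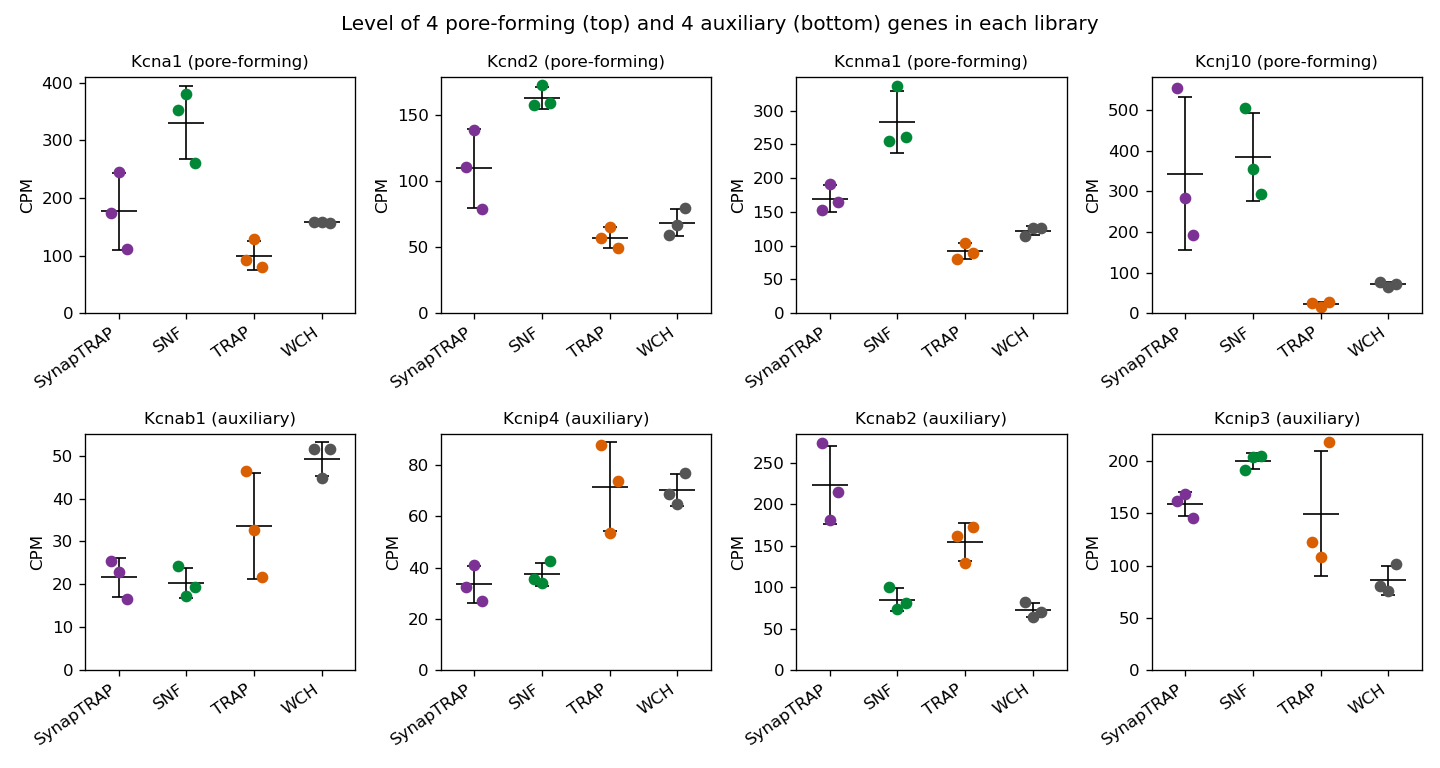
Level in CPM (y axes, from 0) of 4 pore-forming genes (top row) and 4 auxiliary genes (bottom row) in each library (points) of SynapTRAP, SNF, TRAP and WCH, with group mean and SD (bars, n = 3). Kcna1, Kcnd2, Kcnma1 and Kcnj10 lie higher in SNF than in WCH, whereas Kcnab1 and Kcnip4 lie lower.

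Among the HCN members, Hcn2 had 11.5, 10.1 and 7.30 CPM in SNF and 5.48, 3.31 and 4.13 CPM in WCH, with every SNF library above every WCH library. It rose by 1.16 ± 0.32 (SE) on the log2 scale (edgeR adjusted p = 0.00737), and Hcn3 was one of the 5 largest called increases of any member at 1.90 ± 0.36 (SE), edgeR adjusted p = 0.00028. Hcn3 shares 711 exonic bases with Pklr on the other strand, and without a stated strand for the counting, reads of both genes cannot be told apart.

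The largest increases among the pore-forming members were inward rectifiers known from glia and epithelia. Kcnj10 had 506, 357 and 293 CPM in SNF and 76.4, 64.3 and 72.6 CPM in WCH. Kcnj16, which assembles with Kcnj10, had 60.1, 36.2 and 61.5 CPM in SNF and 6.48, 8.85 and 9.26 CPM in WCH. Both genes lay several-fold above WCH in every SNF library, for log2 fold changes of 2.44 ± 0.32 (SE) for Kcnj10 (edgeR adjusted p = 1.02e-05) and 2.68 ± 0.32 (SE) for Kcnj16 (3.9e-06). Kcnj13 was called as well (log2 change 2.47 with SE 0.62, edgeR adjusted p = 0.00365), at 9, 18 and 14 counts per SNF library and with 623 exonic bases shared with Gigyf2. The 12 astrocyte markers, all called higher here, had a median log2 fold change of 1.94, and their part in the Kcnj10 and Kcnj16 results was not tested. The neuronal G-protein-gated members Kcnj3 (0.91), Kcnj6 (0.87) and Kcnj9 (1.12) rose by smaller amounts, at edgeR adjusted p = 0.00779, 0.0131 and 0.00325 in that order, and the call of Kcnj6 was lost without SNF replicate 2. Kcnj3 shares 1621 exonic bases with Gm26794 on the other strand, which bears on its values in every comparison.

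The calcium- or sodium-activated and 2-pore-domain members held called and uncalled genes alike. The large-conductance calcium-activated channel gene Kcnma1 had 255, 337 and 260.5 CPM in SNF and 114, 127 and 126 CPM in WCH, with all SNF libraries higher (log2 change 1.22 with SE 0.21, edgeR adjusted p = 0.000149). Kcnt1, a sodium-activated channel, rose by 1.21 ± 0.23 (SE) on the log2 scale (edgeR adjusted p = 0.000304). Kcnn2, a small-conductance calcium-activated channel, gave 0.55 ± 0.27 (SE) and was not called (edgeR adjusted p = 0.118). Kcnk1, a 2-pore-domain channel of neurons and astrocytes, had 122, 152 and 139 CPM in SNF and 42.3, 51.2 and 70.6 CPM in WCH, without overlap (log2 change 1.34 with SE 0.23, edgeR adjusted p = 0.000123). Kcnk2, a stretch-sensitive channel of the same class, rose by 0.79 ± 0.23 (SE) on the log2 scale (edgeR adjusted p = 0.0102), a call that was lost without WCH replicate 2.

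**Figure D3:**
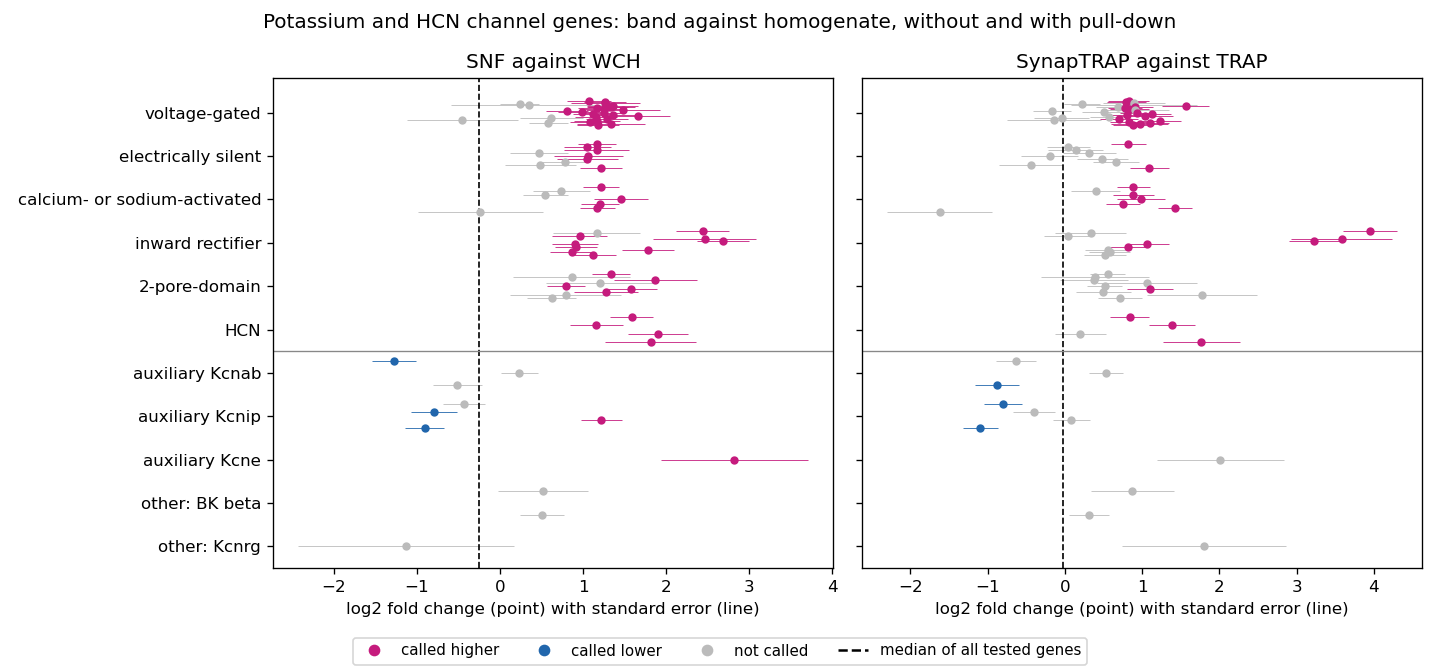
Log2 fold change (x axes, points, with SE as lines) of the 76 tested members by role (rows) for SNF against WCH (left) and SynapTRAP against TRAP (right), with the median of all 13404 genes as a dashed line. Pore-forming members lie mostly to the right of that line in both panels, with 49 and 32 of 65 called higher, and Kcnab and Kcnip members lie on both sides of it. Of all genes 20.6% and 21.6% were called higher.

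The auxiliary members went different ways from one another. Kcnab1, a beta subunit that speeds inactivation of Kcna channels, had 24.2, 17.3 and 19.5 CPM in SNF and 51.5, 44.7 and 51.5 CPM in WCH. All SNF libraries were lower, and the gene fell by 1.28 ± 0.27 (SE) on the log2 scale (edgeR adjusted p = 0.000747). Kcnip4 had 35.4, 34.0 and 42.6 CPM in SNF and 68.6, 64.7 and 77.0 CPM in WCH, again lower in every SNF library (log2 change −0.91 with SE 0.23, edgeR adjusted p = 0.00428). Kcnip2, whose product is the Kcnip subunit of heart as well as brain, was called lower at −0.80 ± 0.28 on the log2 scale (SE, edgeR adjusted p = 0.0279), but the call was lost with DESeq2, with median-of-ratios scaling and without any single library other than WCH replicate 3. Kcnip1 (log2 change −0.43 with SE 0.25, edgeR adjusted p = 0.184), Kcnab3 (log2 change −0.52 with SE 0.29, edgeR adjusted p = 0.171) and Kcnab2 (log2 change 0.23 with SE 0.23, edgeR adjusted p = 0.43) were not called. Against this, Kcnip3 had 191, 204 and 204 CPM in SNF and 80.0, 75.9 and 102 CPM in WCH, higher in every SNF library (log2 change 1.22 with SE 0.25, edgeR adjusted p = 0.000571). Kcne1l had 17, 13 and 14 counts in the SNF libraries and 1, 5 and 14 in the WCH libraries. It was called at 2.82 ± 0.89 on the log2 scale (SE, edgeR adjusted p = 0.018), and the call was lost without SNF replicate 1, WCH replicate 1 or WCH replicate 2.

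Among the 54 member calls of this comparison, 36 held under every setting that kept a scaling between libraries by trimmed means or medians of ratios, and 37 held without any single library. Scaling by total gene counts, which counts the mitochondrial RNA of SNF as depth, moved the median of all genes to −2.60. Calls moved to 0 members higher and 56 lower, beside 0.0821% and 85.4% of all genes. Under that scaling the pore-forming median was −1.17 and the auxiliary median −2.83. Pore-forming members thus lay 1.43 above the median of all genes, against 1.42 with trimmed-mean scaling. With total counts outside the mitochondrial genome, 37 members were called higher and 5 lower at a median of all genes of −0.63. Of all genes 15.8% were called higher and 36.9% lower. Directions for single members above are therefore relative to the bulk of the transcriptome in the band, not to its total RNA.

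The same contrast between band and homogenate was then made among immunoprecipitated ribosomes. In SynapTRAP against TRAP, 32 of 65 pore-forming members were higher and none lower, while none of the 8 auxiliary members was higher and 3 were lower. The medians were 0.81 for pore-forming and −0.52 for auxiliary members, against −0.02 for all genes. Without SynapTRAP replicate 2 they were 0.52 and −0.14, and the auxiliary median was −0.21 without TRAP replicate 2 and −0.16 with the BK beta subunits counted as auxiliary. The background was 21.6% of genes called higher and 18.1% lower, 39.8% in all. Total gene count scaling gave 3 members higher and 9 lower at a median of all genes of −0.9998, beside 4.43% and 47.8% of all genes. Total counts outside the mitochondrial genome gave 17 higher and 6 lower at −0.30, beside 15.8% and 27.4%. The count of 32 also moved to 21 without SynapTRAP replicate 2 and to 21 without TRAP replicate 1, where 18.6% and 16.8% of all genes were higher. Microglial markers (10 of 10, median 3.01), astrocyte markers (12 of 12, median 2.77) and oligodendrocyte markers (8 of 10, median 2.48) were higher in the same comparison, while 5 of 10 neuron markers were lower and 2 higher (median −0.80). Fibroblast and meninges markers were higher for 5 of 6 (median 2.53). Inhibitory neuron markers were higher for 2 of 6 and lower for 1 (median 0.35), and excitatory ones higher for 1 of 5 and lower for 1 (median −0.28). The part of all these markers in the member results of this comparison was not tested.

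Kcnj10 showed the largest difference of this comparison, with 555, 285 and 192 CPM in SynapTRAP and 24.8, 15.8 and 26.2 CPM in TRAP. Every SynapTRAP library exceeded every TRAP library many times over (log2 change 3.95 with SE 0.35, edgeR adjusted p = 1.42e-07). Kcnj16 (log2 change 3.23 with SE 0.33, edgeR adjusted p = 4.99e-07) and Kcnj13 (log2 change 3.58 with SE 0.66, edgeR adjusted p = 0.000219) followed, in the comparison in which all 12 astrocyte markers were higher. Hcn4, an HCN subunit best known from heart pacemaker cells and thalamus, was called at 1.77 ± 0.50 on the log2 scale (SE, edgeR adjusted p = 0.00805) although its groups overlapped, and the call was lost without TRAP replicate 1. Kcna6, a delayed rectifier, rose by 1.57 ± 0.31 (SE) on the log2 scale (edgeR adjusted p = 0.000416), with 2355 exonic bases shared with Gm26673.

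The members named next had smaller fold changes than Kcnj10, Kcnj13 and Kcnj16. Kcnd2 had 111, 139 and 79.0 CPM in SynapTRAP and 56.8, 65.5 and 49.2 CPM in TRAP, without overlap (log2 change 0.94 with SE 0.23, edgeR adjusted p = 0.00247). Kcnq3 had 332, 444 and 361 CPM in SynapTRAP and 202, 186 and 140.0 CPM in TRAP, with the lowest SynapTRAP library far above the highest TRAP library (log2 change 1.11 with SE 0.24, edgeR adjusted p = 0.000909). Hcn2 (1.39), Kcnd3 (1.13), Kcnma1 (0.89) and Kcnc1 (0.78) rose as well, at edgeR adjusted p = 0.000845, 0.00102, 0.00229 and 0.00884 in that order. Kcna1 (0.83), Kcna2 (0.80), Kcnj3 (0.81), Kcnh1 (0.81), Kcnn2 (0.89) and Kcnt1 (0.75) were called on the log2 scale but each lost its call without at least 1 single library, among them SynapTRAP replicate 2 or TRAP replicate 1 for each. Kcnk1 (log2 change 0.56 with SE 0.23, edgeR adjusted p = 0.0553), Kcnk2 (log2 change 0.52 with SE 0.23, edgeR adjusted p = 0.0759), Kcnj6 (log2 change 0.58 with SE 0.26, edgeR adjusted p = 0.0821) and Kcnj9 (log2 change 0.51 with SE 0.27, edgeR adjusted p = 0.139) were not called, nor were Kcna4 (0.22) and Kcnb2 (0.68).

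Of the auxiliary members, Kcnip4 had 32.3, 41.0 and 26.8 CPM in SynapTRAP and 87.8, 53.4 and 73.7 CPM in TRAP. All SynapTRAP libraries were lower (log2 change −1.10 with SE 0.23, edgeR adjusted p = 0.000737), the only auxiliary decrease called both here and in SNF against WCH. Kcnip1, a Kcnip subunit of interneurons, had 11.2, 12.1 and 8.11 CPM in SynapTRAP and 17.5, 21.8 and 15.9 CPM in TRAP, also lower throughout (log2 change −0.80 with SE 0.24, edgeR adjusted p = 0.0119). Kcnab3 had 11.9, 15.2 and 9.88 CPM in SynapTRAP and 23.9, 30.9 and 13.7 CPM in TRAP, where the groups overlapped (log2 change −0.88 with SE 0.28, edgeR adjusted p = 0.016). The Kcnab3 call was lost without TRAP replicate 2 (edgeR adjusted p = 0.092). In a fit of SynapTRAP and TRAP alone the calls of Kcnip1 (edgeR adjusted p = 0.0675) and Kcnab3 (edgeR adjusted p = 0.0569) were lost. Kcnip3 had 161, 168 and 146 CPM in SynapTRAP and 122, 108 and 218 CPM in TRAP, with overlapping groups and no call (log2 change 0.08 with SE 0.24, edgeR adjusted p = 0.814). Kcnab1 (log2 change −0.63 with SE 0.26, edgeR adjusted p = 0.0532) and Kcnab2 (log2 change 0.53 with SE 0.22, edgeR adjusted p = 0.0625) lay just above the threshold, and with the replicate number as a block they passed it, at −0.61 with edgeR adjusted p = 0.0358 for Kcnab1 and at 0.52 with 0.0413 for Kcnab2. Kcnip2 (log2 change −0.40 with SE 0.27, edgeR adjusted p = 0.245) and Kcne1l (log2 change 2.01 with SE 0.82, edgeR adjusted p = 0.0588) were not called.

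Of the 49 pore-forming members called higher in SNF against WCH, 30 were also called higher in SynapTRAP against TRAP, and they made up 30 of the 32 called there. No library enters both comparisons, but they are not independent, since SynapTRAP was pulled down from the band and TRAP from the homogenate. Over all genes 1959 were called higher in both, 71.1% of those higher in SNF against WCH and 67.6% of those higher in SynapTRAP against TRAP.

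The immunoprecipitate of the homogenate was next set against its input. In TRAP against WCH, 6 of 65 pore-forming members were higher and 7 lower, and 2 of 8 auxiliary members were higher and none lower. The background was 11.1% of genes called higher and 10.9% lower, 22% in all, and the medians were 0.05 for pore-forming and 0.24 for auxiliary members against −0.01 for all genes. The auxiliary median was 0.089 without TRAP replicate 2, 0.098 without TRAP replicate 3, 0.10 without WCH replicate 1 and 0.16 without WCH replicate 2. Neuron markers were higher for 4 of 10, while astrocyte markers were lower for 7 of 12 and oligodendrocyte markers for 6 of 10. The count of 8 members called higher fell to 4 without TRAP replicate 2, TRAP replicate 3 or WCH replicate 3, to 3 without WCH replicate 1 and to 2 without WCH replicate 2. The share of all genes called higher fell as well, to 9.61%, 6.99%, 5.42%, 6.9% and 4.75% in that order. Total gene count scaling gave 18 members higher and 1 lower at a median of all genes of 0.56, beside 21.4% and 1.72% of all genes. Total counts outside the mitochondrial genome gave 5 higher and 9 lower at −0.13, beside 7.41% and 13.5%.

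Kcnab2, the most abundant Kcnab gene per kilobase, had 162, 129 and 173 CPM in TRAP and 82.0, 64.5 and 70.7 CPM in WCH. All TRAP libraries lay above all WCH libraries (log2 change 1.10 with SE 0.23, edgeR adjusted p = 0.00196). Kcnh3, a forebrain channel of the ether-a-go-go-like branch, had 37.0, 58.9 and 80.8 CPM in TRAP and 21.5, 19.5 and 21.6 CPM in WCH, also without overlap (log2 change 1.498 with SE 0.25, edgeR adjusted p = 0.000458). Kcnip3 had 122, 108 and 218 CPM in TRAP and 80.0, 75.9 and 102 CPM in WCH, where TRAP replicate 3 was far above the other TRAP libraries. It was called at 0.80 ± 0.24 on the log2 scale (SE, edgeR adjusted p = 0.0223), but without TRAP replicate 3 its log2 fold change was 0.46 with edgeR adjusted p = 0.17, and the call was also lost without WCH replicate 1 or WCH replicate 2. Kcnk12 (log2 change 1.57 with SE 0.47, edgeR adjusted p = 0.0204), Kcng4 (log2 change 1.36 with SE 0.39, edgeR adjusted p = 0.0151) and Kcng2 (log2 change 1.17 with SE 0.37, edgeR adjusted p = 0.0257) were also among the 5 largest called increases, and each lost its call without single libraries, TRAP replicate 2 and WCH replicate 2 for all 3.

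The decreases included both glial and neuronal channels. Kcnj10 had 24.8, 15.8 and 26.2 CPM in TRAP and 76.4, 64.3 and 72.6 CPM in WCH, lower in every TRAP library (log2 change −1.67 with SE 0.32, edgeR adjusted p = 0.00118). Kcnj16 had 3.06, 1.45 and 4.54 CPM in TRAP and 6.48, 8.85 and 9.26 CPM in WCH, also lower throughout (log2 change −1.43 with SE 0.33, edgeR adjusted p = 0.00415). Kcnq3 had 202, 186 and 140.0 CPM in TRAP and 404, 475 and 606 CPM in WCH, and here too the groups lay well apart (log2 change −1.49 with SE 0.24, edgeR adjusted p = 0.000344). Kcnh7, an ether-a-go-go-related channel of the brain, had 140.4, 136 and 117 CPM in TRAP and 232, 325 and 311 CPM in WCH (log2 change −1.14 with SE 0.28, edgeR adjusted p = 0.00632), and it shares 696 exonic bases with Gca. Kcnt2, a sodium-activated channel, fell by 1.01 ± 0.22 (SE) on the log2 scale (edgeR adjusted p = 0.00268). Kcnj3 was called lower at −0.89 ± 0.25 on the log2 scale (SE, edgeR adjusted p = 0.0157), which did not hold without TRAP replicate 3, WCH replicate 2 or WCH replicate 3. The calls of Kcnab2, Kcnh3, Kcnh7, Kcnj10, Kcnj16, Kcnq3 and Kcnt2 held without any single library. Kcnd2 (−0.26), Kcna2 (0.05), Kcnma1 (−0.42) and Kcnip4 (0.03) were not called, with edgeR adjusted p from 0.162 to 0.937.

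**Figure D4:**
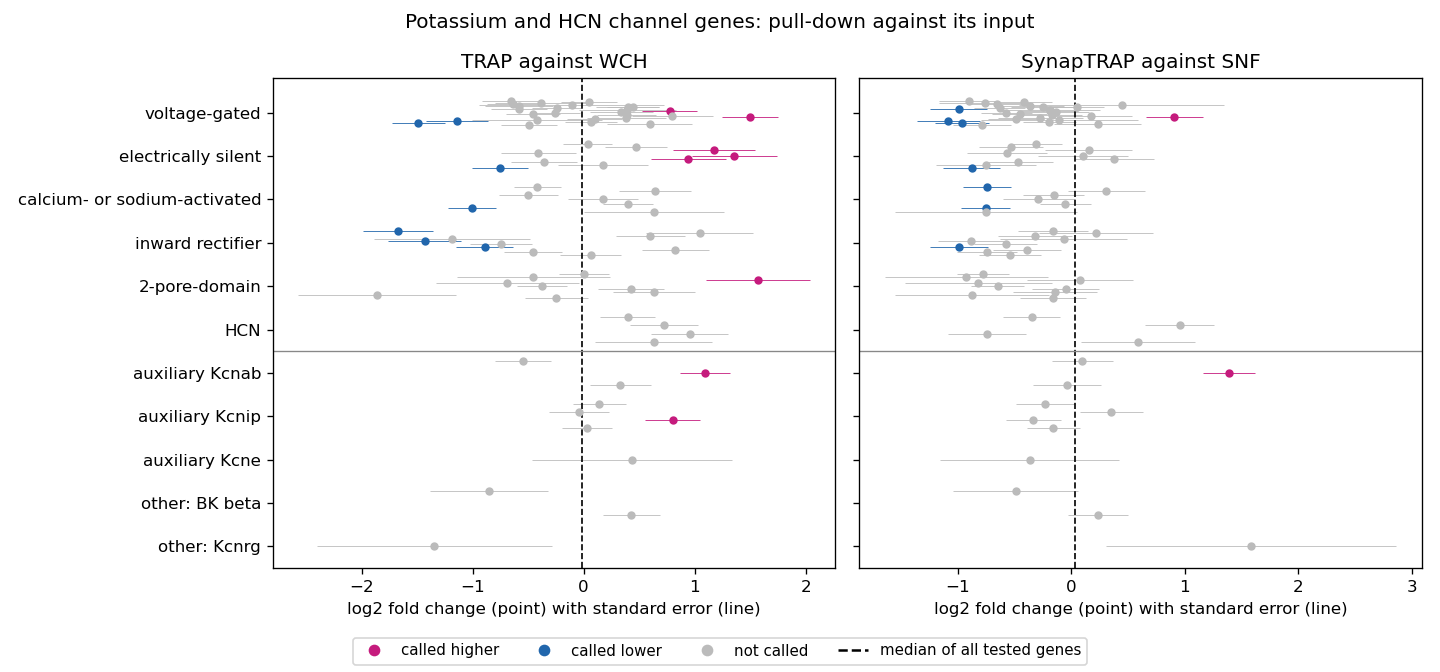
Log2 fold change (x axes, points, with SE as lines) of the 76 tested members by role (rows) for TRAP against WCH (left) and SynapTRAP against SNF (right), with the median of all 13404 genes as a dashed line. On the left 42 of the 76 members have positive values, with 8 called higher and 7 lower, and on the right 18 do, with 2 called higher and 7 lower. Of all genes 11.1% were called higher and 10.9% lower on the left, and 2.29% and 1.79% on the right. The share of all genes with positive values is not given here.

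Within the band, immunoprecipitate and input were compared as SynapTRAP against SNF. Of 65 pore-forming members 7 were lower (10.8%) and 1 was higher (1.54%), and 1 of 8 auxiliary members was higher, at a background of 2.29% of genes higher and 1.79% lower, 4.08% in all. An unadjusted p under 0.05 was found for 20 of the 65, and 13 of the 65 had a positive value. The shares of all genes for these counts are not given here, so they cannot be set against the background of adjusted calls. The medians were −0.37 for pore-forming and −0.10 for auxiliary members against 0.03 for all genes. The pore-forming median was −0.61 without SynapTRAP replicate 2, −0.22 without SynapTRAP replicate 3 and −0.21 without SNF replicate 2. Oligodendrocyte markers were lower for 3 of 10 (median −0.82), microglial markers for 1 of 10 (−0.54) and astrocyte markers for 0 of 12 (−0.41). Of the neuron markers 1 of 10 was higher (median 0.52). These medians were as large in size as the pore-forming one or larger, and the part of the markers in it was not tested. Total gene count scaling turned this to 72 members higher and 0 lower at a median of all genes of 1.98, beside 90.8% and 0.0448% of all genes. Total counts outside the mitochondrial genome gave 2 higher and 5 lower, beside 2.31% and 1.65% of all genes. DESeq2 called 16 lower, beside 4.73% of all genes.

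Kcnab2 had 274, 181 and 214 CPM in SynapTRAP and 100.4, 74.2 and 80.5 CPM in SNF. All SynapTRAP libraries lay far above all SNF libraries (log2 change 1.39 with SE 0.23, edgeR adjusted p = 0.00417), and its log2 fold change was 1.12 to 1.53 and called in every fit that left out 1 library. Kcnh3 had 84.5, 83.3 and 93.9 CPM in SynapTRAP and 44.9, 56.6 and 38.0 CPM in SNF, without overlap. It was called at 0.91 ± 0.25 on the log2 scale (SE, edgeR adjusted p = 0.0409), which did not hold without any single library other than SynapTRAP replicate 2. Kcnh7 had 238, 479 and 204 CPM in SynapTRAP and 559.7, 769 and 623 CPM in SNF, lower in every SynapTRAP library (log2 change −1.08 with SE 0.28, edgeR adjusted p = 0.0306). Kcnc2 (log2 change −0.99 with SE 0.25, edgeR adjusted p = 0.0292), Kcnj3 (log2 change −0.99 with SE 0.26, edgeR adjusted p = 0.0311), Kcnq3 (log2 change −0.97 with SE 0.24, edgeR adjusted p = 0.0243) and Kcnv1 (log2 change −0.88 with SE 0.25, edgeR adjusted p = 0.0487) were the other large decreases, followed by Kcnt2 (−0.75) and Kcnma1 (−0.74). None of these 7 decreases held in every fit that left out 1 library, and the count of 7 was 0 without SynapTRAP replicate 1 or any 1 SNF library, 1 without SynapTRAP replicate 3 and 11 without SynapTRAP replicate 2. The share of all genes called lower was 0.144% to 0.462% where that count was 0. It was 1.71% without SynapTRAP replicate 3 and 3.26% without SynapTRAP replicate 2. With the replicate number as a block 10 members were called lower, the added ones being Kcna1 (−0.94, edgeR adjusted p = 0.0123), Kcnk1 (−0.77, 0.0356) and Kcnq5 (−0.83, 0.0279). Of all genes 2.93% were called lower with the block.

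Whether immunoprecipitation acted differently in the band than in the homogenate was tested as the difference of both effects. edgeR called none of the 76 members at an adjusted p under 0.05, against 0.865% of all genes. An unadjusted p under 0.05 was found for 10 of 76, and the share of all genes at that threshold is not given here. DESeq2 called 1 member higher, Kcnj10 at 1.37, and 2 lower, Hcn3 at −1.85 and Kcnip3 at −1.27. Of all genes it called 1.3% higher and 2.99% lower. In edgeR the values were 1.51 ± 0.44 (SE), edgeR adjusted p = 0.0911 for Kcnj10, −1.70 ± 0.49 (SE), edgeR adjusted p = 0.0868 for Hcn3 and −1.14 ± 0.34 (SE), edgeR adjusted p = 0.0993 for Kcnip3. With the replicate number as a block, Kcnj10 (1.47, edgeR adjusted p = 0.0313) and Hcn3 (−1.66, 0.0424) passed the threshold. Hcn3 was named here after its values were seen.

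A list of 26 genes for partner proteins outside the Kcn and Hcn symbols was also followed, and 24 were tested. In SNF against WCH 13 were higher and 2 lower, with a median log2 fold change of 1.23 against −0.25 for all genes, of which 20.6% were higher and 16.5% lower. Dpp6 (1.87) and Dpp10 (1.64), the membrane-spanning auxiliary proteins of Kcnd channels, rose, as did Cntnap2 (2.03) and Cntn2 (1.88), which anchor Kcna channels beside the node. Amigo1, Amigo2, Lrrc55, Abcc8, Abcc9, Lgi1, Adam22, Adam23 and Lingo1 rose as well, by 0.67 to 2.36 on the log2 scale. Pex5l, a cytosolic HCN partner, gave −0.81, and Vapa, a protein of the endoplasmic reticulum that binds Kcnb channels, gave −0.81, both called lower. In SynapTRAP against TRAP 10 partner genes were higher and 1, Pex5l (−0.51), was lower, against 21.6% and 18.1% of all genes. The Pex5l call there was lost without SynapTRAP replicate 1, SynapTRAP replicate 3, TRAP replicate 1 or TRAP replicate 3. In TRAP against WCH 5 were higher (Abcc8, Dlg4, Ank2, Ank3 and Lingo1) and none lower, against 11.1% and 10.9% of all genes. Without TRAP replicate 3, the library that stood apart in this list, Ank2 was at 1.48 against 3.04 with it and Ank3 at 1.19 against 2.52, and the call of Abcc8 was lost. The count of 5 was 2 without any single WCH library, where 4.75% to 6.9% of all genes were called higher. In SynapTRAP against SNF, where 2.29% of all genes were higher and 1.79% lower, Dlg4 was higher (1.13) and Lrrc55 lower (−0.97). The Dlg4 call was lost without SynapTRAP replicate 1, SNF replicate 2 or SNF replicate 3, and the Lrrc55 call without any single library other than SynapTRAP replicate 2.

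Exon length, which the membership rule did not use, differed between the classes. Tested pore-forming members had a median exon length of 4833 bases (1270 to 18120) and tested auxiliary members one of 3586.5 bases (1543 to 8593). In SNF against WCH, the share of all genes called higher was 18.9% among the 4435 shortest genes, 21.5% among the 4436 of middle length and 21.5% among the 4435 longest. Pore-forming members were called higher there in 9 of 13, 23 of 31 and 17 of 21 cases in those length classes. In SynapTRAP against TRAP the shares of all genes were 14.7%, 21.6% and 28.7%, and 2 of 13, 13 of 31 and 17 of 21 pore-forming members were called higher. Of all genes 26.3%, 17.7% and 10.4% were called lower there. In TRAP against WCH 16.3%, 10.3% and 6.9% of all genes were higher and 5.28%, 9.49% and 17.7% lower. Pore-forming members were called higher there in 3 of 13, 3 of 31 and 0 of 21 cases. In SynapTRAP against SNF the shares of all genes were 0.857%, 2.1% and 3.95% higher and 0.744%, 1.33% and 3.27% lower. Higher calls thus moved with length among members as among all genes in SynapTRAP against TRAP and TRAP against WCH. The part of length in the calls of any comparison was not tested.

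The authors' deposited table of genes enriched in the band listed 3508 genes, 59 members among them, of which 57 are pore-forming and 2 auxiliary. It included all 51 members called higher in SNF against WCH. The other members listed, Kcnq3 and Kcnn2 among them, were not called here. The table was deposited with the same data, so it is no independent check. The fold changes in the authors' deposited table exceeded those of the fit by a median of 0.25 on the log2 scale, over a range from −0.02 to 0.51. The authors' deposited table of 109 local translation candidates listed 1 member, Kcnh3, with a log2 fold change by TRAP of 0.65 at a false discovery rate of 0.236 and one by column of 1.41 at 5.39e-06. The authors' deposited table of 275 somatic translation candidates listed no member.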

How the data were processed

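The authors deposited 1 count per gene and library for 29879 genes, with summary lines that held 19.3% to 58.3% of reads and were left out here. A NuGEN kit served for the cDNA, per the labels. The tools were Bowtie2, STAR, HTSeq and edgeR, per the submitters' processing notes, and the versions, genome build, annotation and strand setting are not stated there. Tables of selected genes deposited by the authors hold log2 fold changes, log2 CPM, likelihood ratio scores and p-values, per the file headers. Their values put the fold changes on a log2 scale. The groups behind the authors' deposited tables are not named in their headers.

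Symbols, classes, coding sequence and exon lengths came from GENCODE M21 (GRCm38). One fit in edgeR 4.0.16 (R 4.3.3) covered all 12 libraries, with a mean per group, trimmed-mean scaling, edgeR's default filter and its robust quasi-likelihood test, with Benjamini-Hochberg adjustment over 13404 genes and calls at an adjusted p under 0.05. Fold changes carry the SE of that fit. CPM used the same scaling. DESeq2 1.42.0 was an alternative fit. Alternatives changed the scaling, the filter, the tool, the samples and the replicate block, and left out each library in turn. No 2 libraries of a group agreed within counting noise. Precision rests on the 3 libraries per group and on the counts above.

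Members and lists were chosen with earlier results of these data known. Fold changes are given for the 5 largest called increases and decreases of a comparison and for a set panel of genes that includes the Kcne family, and some genes of that panel are not reported here. Same-numbered libraries of SynapTRAP and SNF, and of SynapTRAP and TRAP, deviated together from their group means (correlations 0.22 to 0.38 and 0.10 to 0.14). A possible pairing of these groups is thus read from the data, not from the labels. Correlations of differently numbered libraries are not given here. The main values come from the fit without pairing, and the block was an alternative. Reads of overlapping genes could not be separated by strand, which touches 29 members, 10 of them with another counted gene.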

Additional observations from a re-analysis of the deposited data

How the results depend on the processing

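Depth and 3 libraries per group limit the members of few counts, the high mitochondrial share of SNF leaves it 1819853 to 2111322 counts elsewhere, and each direction is relative to the scaling. Under total gene counts, the pore-forming and auxiliary medians were 0.64 and 0.84 in TRAP against WCH (18 members higher, 1 lower), −1.17 and −2.83 in SNF against WCH (0 and 56), 1.66 and 1.93 in SynapTRAP against SNF (72 and 0), −0.066 and −1.55 in SynapTRAP against TRAP (3 and 9), and 1.06 and 1.16 for the difference of both immunoprecipitation effects (20 and 0). Of all genes 21.4% were higher and 1.72% lower, 0.0821% and 85.4%, 90.8% and 0.0448%, 4.43% and 47.8%, and 47.2% and 0.0% in that order. Relative to the median of all genes, with the classes as defined and over the other settings, the pore-forming median stayed at 1.26 to 1.53 in SNF against WCH and 0.52 to 1.02 in SynapTRAP against TRAP, and the auxiliary one at −0.43 to −0.12 and −0.58 to −0.14. Total counts outside the mitochondrial genome gave 5 members higher in TRAP against WCH, medians of 0.77 and −0.87 with 5 lower in SNF against WCH, −0.83 for auxiliary members with 17 higher and 6 lower in SynapTRAP against TRAP, and 1 higher for the difference. Shares of all genes were 7.41% higher, 36.9% lower, 15.8% higher with 27.4% lower, and 0.853% higher in that order.

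The replicate block gave 12 members higher and 12 lower in TRAP against WCH, where same-numbered libraries had correlations of −0.015 to 0.063. It gave 10 lower in SynapTRAP against SNF, 39 higher and 4 lower in SynapTRAP against TRAP, and 1 higher and 1 lower for the difference. Shares of all genes with the block were 12.3% and 13.0%, 2.93% lower, 22.8% and 19.0%, and 1.62% and 1.11% in that order. The block lost no call. A fit of only the groups compared called 11 higher and 11 lower in TRAP against WCH, beside 15.5% and 13.0% of all genes. It called 1 and 0 in SynapTRAP against SNF, beside 1.21% and 1.04%, and 1 lower in SynapTRAP against TRAP, beside 11.6%. It gave an auxiliary median of −0.35 in SNF against WCH. That median was −0.34 with median-of-ratios scaling and with DESeq2, and −0.10, above the median of all genes, with the BK beta subunits counted as auxiliary, which gave −0.16 in SynapTRAP against TRAP. The strict filter gave an auxiliary median of 0.10 in TRAP against WCH. In SynapTRAP against SNF, median-of-ratios scaling called 1 higher and DESeq2 16 lower, beside 1.38% and 4.73% of all genes. For the difference, 1 higher and 1 lower were called without a filter, and 1 and 2 with DESeq2. Shares of all genes were 1.52% and 0.991% without a filter and 1.3% and 2.99% with DESeq2.

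Leaving out 1 library at a time, members higher numbered 2 to 10 in TRAP against WCH, 1 to 3 in SynapTRAP against SNF (lower 0 to 11), 21 to 41 in SynapTRAP against TRAP and 0 to 1 for the difference (lower 0 to 3). Shares of all genes were 4.75% to 11.2%, 0.138% to 3.6% (lower 0.144% to 3.26%), 16.8% to 21.5% and 0.0% to 1.74% (lower 0.0% to 2.15%). The auxiliary median was 0.089 to 0.20 in TRAP against WCH, −0.67 to −0.36 in SNF against WCH, −0.56 to −0.14 in SynapTRAP against TRAP and −0.37 to 0.15 for the difference, and the pore-forming one −0.035 to 0.22 in TRAP against WCH. Log2 fold changes of some uncalled members changed sign, with these ranges over the left-out libraries. In TRAP against WCH they were Kcna2 (−0.013 to 0.14), Kcne1l (−1.73 to 1.74), Kcnip2 (−0.25 to 0.098), Kcnip4 (−0.12 to 0.24), Kcnj9 (−0.077 to 0.23) and Kcnk1 (−0.11 to 0.23). In SynapTRAP against SNF they were Kcnab1 (−0.13 to 0.26), Kcnab3 (−0.21 to 0.11), Kcnb2 (−0.61 to 0.0042), Kcnh1 (−0.53 to 0.070), Kcnip2 (−0.0068 to 0.62), Kcnj10 (−0.78 to 0.13), Kcnmb4 (−0.021 to 0.47), Kcnn2 (−0.39 to 0.14) and Kcnt1 (−0.18 to 0.12). In SynapTRAP against TRAP it was Kcnip3 (−0.15 to 0.42), and for the difference Hcn2 (−0.13 to 0.40), Kcna1 (−0.55 to 0.002), Kcna4 (−0.28 to 0.17), Kcnab2 (−0.0019 to 0.44), Kcnd3 (−0.25 to 0.23), Kcne1l (−2.11 to 1.26), Kcnj3 (−0.41 to 0.14) and Kcnmb4 (−0.45 to 0.035). In SynapTRAP against SNF, Kcnab1 (−0.0098 and −0.0102) also changed sign with median-of-ratios scaling and DESeq2. For the difference, Kcnd3 did so with both (−0.1384 and −0.1383) and Kcna4 without a filter (0.007). The cause of these changes was not tested.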
